A study of Culex quinquefasciatus with 20 samples.

Results

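A set of 200 genes of the southern house mosquito, *Culex quinquefasciatus*, stood out in females knocked down or killed by malathion (MS group). For each gene, every MS library was higher than any library of the other 3 groups. Females still alive 24 h after the exposure (MR group) stayed near the level of unexposed field females (WI group). The members were chosen from the measured values themselves, on TMM CPM (counts scaled to a common library total that TMM corrects for unequal RNA composition). A gene was taken when its mean was at least 0.5 TMM CPM in the CO and WI groups, its mean over all libraries was under 1000, every MS library exceeded every other library, and the MR mean was between 0.67 and 1.5 times the WI mean. Of 17499 genes kept by a filter on low counts, out of 19793 in the files, 299 met every condition. The 200 with the highest ratio of the MS mean to the highest other group mean form the set, and all of them had thus passed the filter. What the rule used (the height of MS above the other groups, and the nearness of MR to WI) is described here without a test.

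Every library held RNA of 10 pooled females, whole but for a leg used for a species test, and each group had 5 libraries. The WI females were reared from field-collected eggs, carried the genotype label WT, met no insecticide and were taken 3 days after emergence. The CO females were of the susceptible Sebring laboratory colony and were also unexposed and of that age. The MS and MR females were field females, likewise labelled WT, placed when 3 days old in bottles coated with 400 µg of malathion for 120 min. Those knocked down or dead within that time were the MS group, and those alive after a further 24 h were the MR group. The MR females were thus a day older at collection, and outcome, age and time of collection cannot be told apart between MS and MR. The paper describes the MS females as dead when the exposure ended, whereas the WI and CO females were immobilized by cold. Exposure, death and handling therefore cannot be told apart between MS and either unexposed group. The labels call the replicates biological and the methods call them technical, so that p-values measure only the spread between these pools.

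Malathion is an organophosphate whose activated form blocks acetylcholinesterase, the enzyme that ends the signal of acetylcholine at synapses, and knockdown is the loss of posture and movement that follows. The annotated genes of the set touch a few well described systems. The proteasome is the protease complex that degrades proteins tagged with ubiquitin. The COP9 signalosome regulates the cullin-based ubiquitin ligases, among them the SCF complexes, which attach that tag. Glycolysis and the tricarboxylic acid cycle break down sugars and acetyl groups and feed the mitochondrial respiratory chain. Names and terms came from the gene tables of the study, since the count files hold identifiers only. The study named 4 members and listed 81 under a functional term, and 119 had neither. The list of terms for the MR and MS comparison holds genes that the study had called between those groups on these libraries, so it is not independent evidence of their direction.

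The members differed widely in level and only moderately in their rise. The MS mean ran from 1.54 to 1627 TMM CPM with a median of 44.6, with 54 members at 100 or more and 34 below 10. The ratio of the MS mean to the highest other group mean ran from 1.62 to 10.2 with a median of 2.01. Of the 200 members, 101 had a ratio over 2 and 7 a ratio over 3. The highest of the other groups was MR for 132 members, WI for 52 and CO for 16. The lowest MS library stood at 1.00 to 1.87 times the highest other library, with a median of 1.17, so for many members the gap between MS and the rest was narrow.

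The separation depended on the scaling, and this bears on every member. The TMM factors were 0.563 to 0.704 in MS 2 to 5 and 1.08 in MS 1, against 0.807 to 1.34 in WI, 0.841 to 1.72 in CO and 1.01 to 1.22 in MR. A factor under 1 raises the scaled values of a library. Scaled by library size alone, the MS mean stayed above the other 3 means for 195 of 200 members, but every MS library stayed above every other library for 26 of them, and 20 met the full rule. The median ratio was then 1.29. Among all tested genes, every MS library exceeded every other library for 3.71% with TMM and for 0.709% by library size. The median log2 fold change of MS over WI was -0.07 for all genes and 1.24 for the members with TMM, and -0.58 and 0.73 by library size. Set against the median of all genes, the members' difference was 1.31 on the log2 scale under either scaling. A change of library factors moves the members and all genes nearly alike, so this agreement is no check on the scaling. The pair of genes with the most counts over all libraries took 11.5% of the counts in MS 1 and 24.5% to 32.7% in MS 2 to 5. The same pair took 10.9% to 23.1% in WI, 4.51% to 13.4% in CO and 13.7% to 25.9% in MR. The part of these genes in the scaling was not tested.

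As a share of all counts, which uses no scaling factor, the 200 genes together took 2.24% ± 0.346 (SD, n = 5) in MS, against 1.62% ± 0.331 in MR, 1.31% ± 0.214 in WI and 1.17% ± 0.173 in CO. The MS shares ran from 1.92% to 2.82% and the MR shares from 1.26% to 1.98%, so these groups overlapped in the share, whereas MS lay clear of WI (1.07% to 1.64%) and CO (0.929% to 1.37%). Library totals were 143972261 to 189723320 counts and overlapped between the groups. In whole bodies, more cells of a type and more of a transcript in each cell cannot be told apart.

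**Figure D1:**
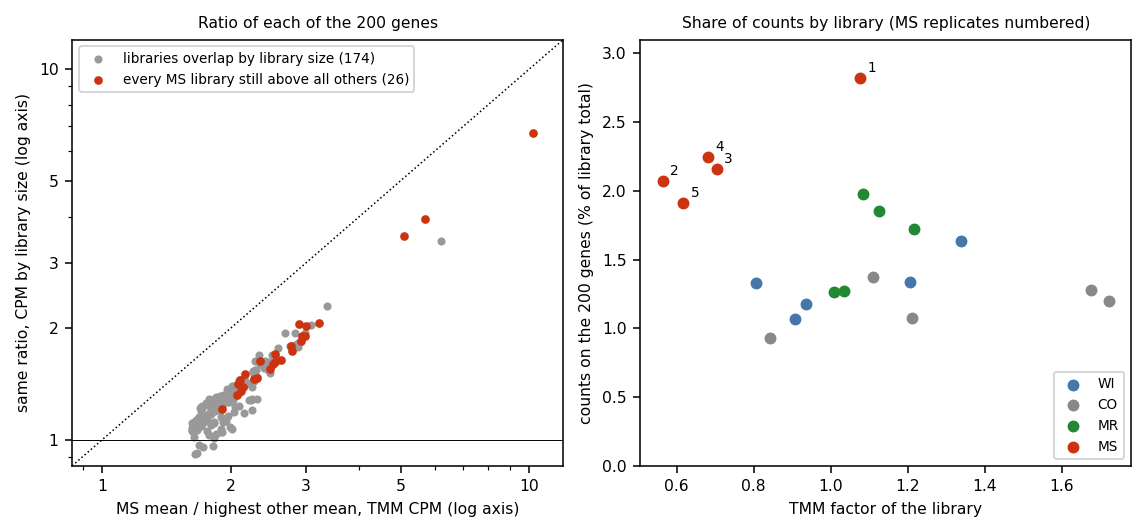
Left, the ratio of the MS mean to the highest other group mean for each of the 200 genes with TMM CPM (x, log axis) and with CPM by library size alone (y, log axis), where the dotted line marks equal ratios. Right, the share of each library's counts that fell on the 200 genes (y, percent) against the library's TMM factor (x), with 5 points per group and the MS replicates numbered. The points of the left panel lie below the dotted line, 26 of them in red for genes whose MS libraries stay above all others by library size, and MS 1, with a factor of 1.08, holds the highest share (2.82%).

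The largest ratio was that of CPIJ000214, which the study lists under extracellular inhibitors of endopeptidases. The level of CPIJ000214 was 1.36, 2.73, 2.65, 2.17 and 1.33 TMM CPM in WI 1 to 5, 0.357, 1.05, 0.861, 1.87 and 1.58 in CO 1 to 5 and 3.08, 0.528, 3.06, 0.853 and 3.42 in MR 1 to 5. In MS 1 to 5 it was 19.9, 26.4, 50.6, 6.14 and 8.26 TMM CPM. All MS libraries lay above the others, yet they ranged widely among themselves, with MS 3 highest and MS 4 lowest. The mean was 2.05 ± 0.678 in the WI group, 1.14 ± 0.597 in the CO group, 2.19 ± 1.38 in the MR group and 22.3 ± 17.9 in the MS group (SD, n = 5), a ratio of 10.2 that was 6.71 by library size. CPIJ011810 and CPIJ016698, listed under peptidase inhibitors as well, had ratios of 2.87 and 1.76. In CPIJ011810 the MS 5 library was at 62.4 TMM CPM, with the other MS libraries at 10.4 to 17.5, and without MS 5 the ratio was 1.68. CPIJ016698 carries terms for wound healing and coagulation, and its MS libraries lay between 10.2 and 12.8 TMM CPM against at most 8.60 elsewhere.

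CPIJ010336 and CPIJ010335 had the highest ratios among the members with an MS mean of 100 TMM CPM or more, 5.70 and 5.07. Their identifiers are consecutive, and neither has a name or term in the tables used here. CPIJ010336 was measured at 117, 371, 156, 240.4 and 284 TMM CPM in WI 1 to 5, 50.9, 199, 58.9, 190.2 and 95.8 in CO 1 to 5 and 271, 189.6, 96.4, 162 and 164 in MR 1 to 5. The MS libraries, in order, stood at 453, 1945, 1429, 1512 and 1318 TMM CPM. The MS 1 value was the lowest of the MS group by far and still exceeded the highest other library, WI 2. CPIJ010335 had a mean of 151 ± 62.00 in the WI group, 55.3 ± 29.9 in the CO group, 114 ± 44.9 in the MR group and 766 ± 256 in the MS group (SD, n = 5), again with MS 1 lowest at 324 TMM CPM. Both stayed separate by library size, with ratios of 3.94 and 3.55. In all, 7 pairs of members had consecutive identifiers. CPIJ007064 and CPIJ007065 formed another such pair near the top, with ratios of 3.21 and 2.93, and the study lists both under ATP binding. For CPIJ007064 the level was 54.7, 98.4, 56.7, 60.4 and 60.3 TMM CPM in WI 1 to 5, 25.3, 70.5, 34.1, 60.6 and 36.4 in CO 1 to 5 and 115, 97.8, 53.6, 52.2 and 79.2 in MR 1 to 5. MS 1 to 5 were at 191, 265, 289.8, 318 and 214 TMM CPM. MS did not overlap the other groups, and MR 1, WI 2 and MR 2 were the highest libraries outside it. The counting rule for reads that map to more than 1 gene is not given in the sources used here, which leaves near-identical copies uncertain.

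The spread of the MS libraries differed among further members of high rank. The median SD over the 200 members was 17.3% of the MS mean. CPIJ014820, which the study names protein-S isoprenylcysteine O-methyltransferase (an enzyme that methylates the lipid-bearing end of prenylated proteins) and files with the GST genes, had a mean of 18.1 ± 2.12 in the WI group, 14.6 ± 2.53 in the CO group, 16.4 ± 4.49 in the MR group and 52.4 ± 5.37 in the MS group (SD, n = 5). Its MS libraries lay between 44.2 and 57.1 TMM CPM, and the highest other library was MR 1 at 23.7. CPIJ017221, without a term, reached 68.5 ± 5.24 TMM CPM in MS against 23.0 ± 11.2 in MR, where MR 5 was highest at 37.1. CPIJ011369, also without a term, reached 50.3 ± 6.45 in MS against 16.8 ± 7.09 in MR. CPIJ011343, listed under heparin binding and the extracellular region, was between 105 and 213 TMM CPM in MS and between 51.4 and 64.6 in MR. CPIJ002857, a transferase, was at 63.1 ± 11.99 in MS and at most 28.3 in any other library. CPIJ005973, listed under the SCF ubiquitin ligase complex, was at 88.8 ± 7.92 in MS against 32.1 ± 9.58 in MR. CPIJ010357, an RNA-binding gene, was at 61.1 ± 21.4 in MS, where MS 1 was lowest at 27.7 and close to MR 4 at 27.0.

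Other members of high rank were scarce or varied. CPIJ008211 ranked next after CPIJ000214 with a ratio of 6.21 on a mean of 6.08 ± 3.12 TMM CPM in MS. Its MS 1 value of 2.81 exceeded MR 1 at 2.72 only narrowly, while MR 2 to 5 lay between 0.385 and 0.460. CPIJ009409 (4.20 ± 0.817 in MS), CPIJ007055 (11.2 ± 3.60) and CPIJ019908 (11.1 ± 3.50) had ratios of 3.37, 3.07 and 2.92, and none of these has a term. CPIJ007830, a more abundant member without a term, was at 297 ± 107 TMM CPM in MS and at 156 in MR 1, the highest library outside MS.

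**Figure D2:**
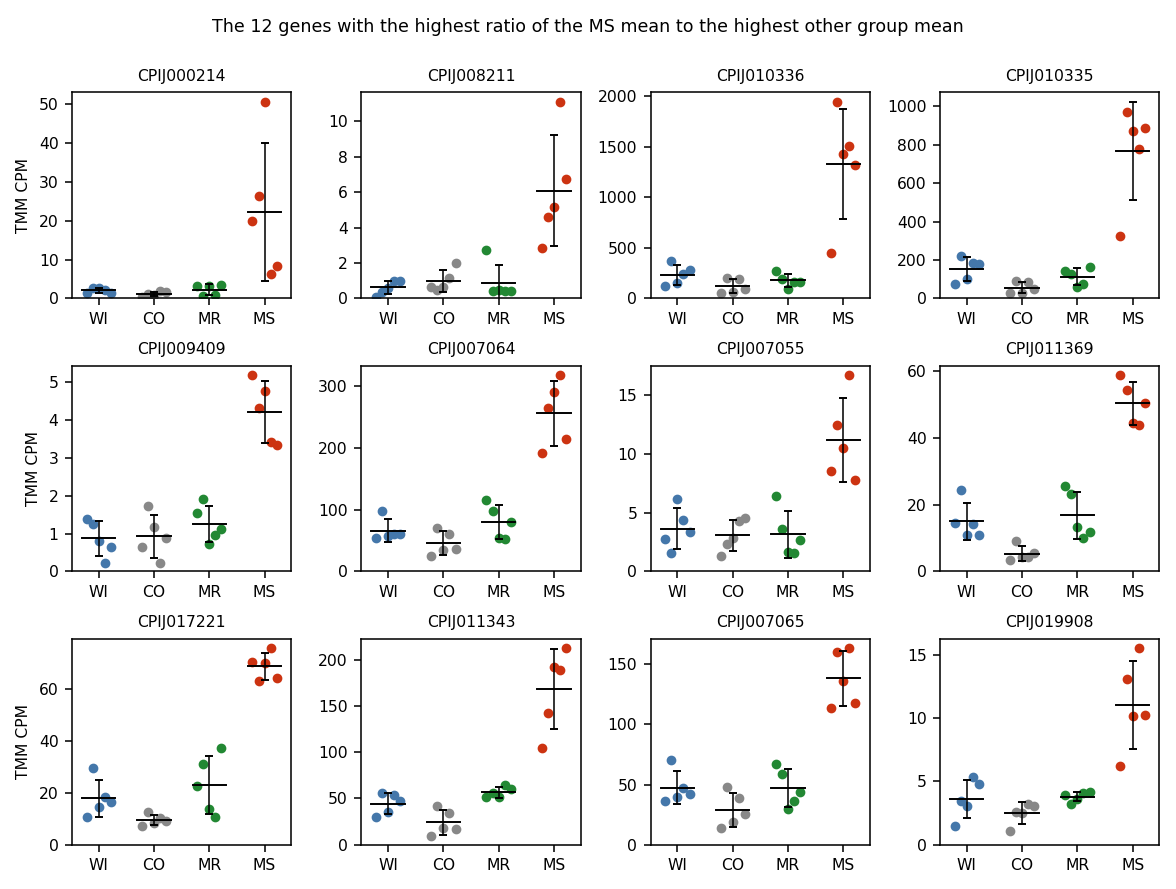
TMM CPM (y, from 0) of the 12 members with the highest ratio in each of the 20 libraries, in 4 groups (x) of 5 points ordered by replicate number, with the group mean as a line and its SD as a bar. In every panel the 5 MS points stand above all others, from the scarce CPIJ009409 (MS mean 4.20) to CPIJ010336 (MS mean 1331), and for CPIJ010336 and CPIJ010335 MS 1 lies well below the other MS points.

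The proteasome and the COP9 signalosome together gave 10 members. Of all 17499 tested genes 200 were members, and of the 629 with a listed term for MR and MS, 78 were. Of 11 genes that the study lists for the proteasome, 6 were members (CPIJ015971, CPIJ009931, CPIJ011552, CPIJ016407, CPIJ003334 and CPIJ013344), with ratios of 1.69 to 2.39. CPIJ003334 is listed under the regulatory particle, which recognizes and unfolds tagged proteins. CPIJ015971 stood at 61.8, 77.1, 58.4, 60.8 and 69.6 TMM CPM in WI 1 to 5, 48.8, 65.4, 43.6, 63.5 and 56.98 in CO 1 to 5 and 123, 98.9, 58.3, 58.6 and 89.5 in MR 1 to 5. The 5 MS values were 195, 251, 187, 199.8 and 191 TMM CPM. MS 2 was highest, MR 1 was the highest library outside MS, and MR 3 and MR 4 lay at the lower end of the WI range. Summed over the 6 members, the level was 763 ± 121 TMM CPM in MS (SD, n = 5), against 379.9 ± 96.2 in MR, 298 ± 45.8 in WI and 287 ± 47.02 in CO. Of the 9 genes listed for the COP9 signalosome, 4 were members (CPIJ004864, CPIJ000966, CPIJ010884 and CPIJ010491), with ratios of 1.90 to 2.30. The value of CPIJ004864 was 20.03, 31.4, 22.98, 32.8 and 30.3 TMM CPM in WI 1 to 5, 18.98, 20.05, 17.8, 33.5 and 24.2 in CO 1 to 5 and 39.3, 54.6, 25.3, 29.6 and 44.5 in MR 1 to 5. In the MS pools it reached 68.3, 96.9, 88.3, 109.5 and 82.5 TMM CPM. MR 2 came closest to the MS libraries of CPIJ004864. Summed over these 4 members the level was 307 ± 39.4 TMM CPM in MS, against 148 ± 49.5 in MR, 115 ± 13.9 in WI and 116 ± 21.96 in CO. By library size 0 of the 10 stayed separate, and their ratios were 1.05 to 1.56. Of 36 genes listed for proteolysis, 4 were members, CPIJ004864 and CPIJ003334 of these 10, CPIJ000214 and CPIJ001109. That share was near the share among all genes with a listed term. CPIJ001109, also listed for peptidase activity, was at 62.3 ± 9.12 TMM CPM in MS against 27.6 ± 2.48 in WI.

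Across the whole lists and by edgeR's quasi-likelihood F test with an FDR under 0.05, 11 of 11 proteasome genes and 9 of 9 COP9 signalosome genes were higher in MS than in WI, where 12.3% of all tested genes were. Over MR, 10 and 9 were higher, where 4.18% of all tested genes were. By library size the counts over WI were 4 and 3, where 5.1% of all genes were higher, and those over MR were 0 and 0 (0.669%). The list medians were then 0.50 and 0.56 over WI and 0.23 and 0.44 over MR on the log2 scale, against -0.58 and -0.62 for all genes. Neither list had a gene called between MR and WI. As the lists were drawn from genes called between MR and MS, these counts describe them and are not independent evidence of direction. Ribosome biogenesis, nucleolus, rRNA processing, RNA helicase activity, tRNA processing and the structural constituent of cuticle had 0 genes in the set. By the rule, a gene lower in MS, or with an MR mean above 1.5 times the WI mean, could not enter. Of 36 ribosome biogenesis genes, 28 were lower and 0 higher in MS than in WI, where 11% of all genes were lower. All 34 listed cuticle genes were higher in MS than in WI, and 28 of them were higher in MR than in WI.

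Energy and carbohydrate metabolism held a further group. Of 29 genes listed for the generation of precursor metabolites and energy, 7 were members, and of 36 for carbohydrate metabolism, 8, with 3 genes on both lists. Among all tested genes with a listed term for MR and MS, 78 of 629 were members. In glycolysis, CPIJ002354, an isomerase of sugars, was among the 5 members with the highest MS mean. CPIJ002354 lay at 279, 562, 359, 545 and 444 TMM CPM in WI 1 to 5, 91.4, 289.6, 117, 301 and 173 in CO 1 to 5 and 629, 643, 578, 669 and 559 in MR 1 to 5. The MS libraries read 822, 1928, 1616, 1952 and 1745 TMM CPM. MS 1 was the lowest MS library and stood above MR 4, the highest of the rest. CPIJ017812, a carbohydrate kinase of glycolysis, lay near the lower end of the set with a ratio of 1.62. In the tricarboxylic acid cycle, CPIJ006157 carries the term for succinate-CoA ligase, the enzyme that splits succinyl-CoA. In this gene the level was 674, 802, 496, 606 and 511 TMM CPM in WI 1 to 5, 241, 579.9, 272, 278 and 339 in CO 1 to 5 and 989.9, 923, 601, 525 and 690.4 in MR 1 to 5. Its MS values were 1179, 1438, 1274, 1308 and 1281 TMM CPM. The MS libraries lay close together, and MR 1 and MR 2 were the highest libraries outside MS. CPIJ008384, a hydro-lyase of the cycle, was at 585 ± 115 TMM CPM in MS and at 453 in MR 1. CPIJ000005, an acyltransferase of the cycle, was at 31.8 ± 8.002 in MS and at 19.2 in MR 1. CPIJ011693, of respiratory complex I, had a ratio of 1.76, and CPIJ000967, of the mitochondrial membrane, was at 1569 ± 236 TMM CPM in MS against 691 ± 132 in MR.

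The other abundant members were CPIJ002358 (1627 ± 351 TMM CPM in MS), a transferase that binds ATP, and CPIJ011929 (1573 ± 354) and CPIJ008542 (1442 ± 227), which have no term. CPIJ010518 carries the term for phosphoenolpyruvate carboxykinase, an early enzyme of glucose synthesis, and was at 90.5 ± 22.6 TMM CPM in MS against 43.6 ± 11.6 in MR. CPIJ007333 and CPIJ017521, both hydrolases of glycosidic bonds, were at 192 ± 69.9 and 184 ± 67.0 in MS against 66.3 ± 25.6 and 63.9 ± 22.4 in MR, each with MS 2 highest. CPIJ006166, listed under glycogen metabolism, had a ratio of 1.82. By library size 1 of the 8 carbohydrate members, CPIJ002354, stayed separate (885 CPM in MS 1, its lowest MS library, against at most 723, in MR 2). Of the 8, 0 met the full rule.

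**Figure D3:**
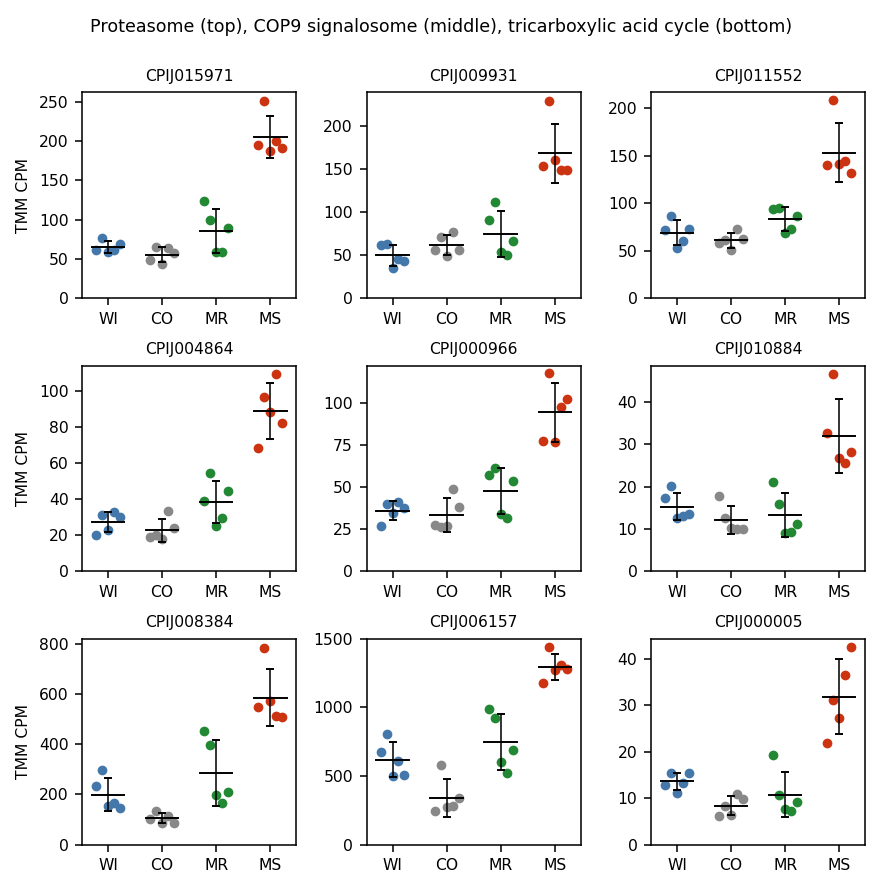
TMM CPM (y, from 0) of 3 members each of the proteasome, the COP9 signalosome and the tricarboxylic acid cycle in the 20 libraries, in 4 groups (x) of 5 points ordered by replicate number, with the group mean as a line and its SD as a bar. The MR points spread widely, as for CPIJ008384 with 453 in MR 1 and 165 in MR 4, and the CO points lie below the WI points for CPIJ008384 but among them for CPIJ011552.

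Of the detoxification genes the study listed, 4 were members, where 200 of all 17499 tested genes were. These lists hold genes that the study had called between WI and CO or between MR and MS on these libraries, not whole families, and are not independent evidence of direction. The genes that the study files as GST gave 3 of 26, namely CPIJ002674 (Glutathione S-transferase 1), CPIJ002663 (Glutathione S-transferase 1-1) and CPIJ014820. Glutathione S-transferases couple glutathione to foreign compounds, whereas the name of CPIJ014820 is that of a methyltransferase. CPIJ002674 was at 4.501 ± 1.48 TMM CPM in MS against 1.80 ± 0.503 in WI and 1.59 ± 0.735 in MR. CPIJ002663 was at 5.41 ± 0.341 against 3.09 ± 1.21 and 2.38 ± 0.895. The paper called CPIJ002663 in both of its comparisons, higher in WI than in CO and lower in MR than in MS. Here its difference between WI and CO was not called (log2 fold change 0.49, FDR 0.382, edgeR quasi-likelihood F test). The P450 genes, oxidases of foreign compounds, gave 1 of 60, CPIJ016851 (CYP6Y5), at 9.05 ± 2.09 in MS against 3.38 ± 0.721 in WI, where its lowest MS library (5.85) lay just above MR 1 (5.71). The esterases, which cleave ester bonds such as those of malathion, gave 0 of 8. Of the 60 P450 genes, 9 were higher and 23 lower in MS than in WI by edgeR's quasi-likelihood F test, and of the 26 GST genes 6 were higher and 4 lower, beside 12.3% and 11% of all tested genes. By library size the P450 counts were 6 higher and 35 lower and the GST counts 3 and 9, beside 5.1% and 21.4%, so the balance of the GST genes turned with the scaling. Of 20 listed methyltransferases, 17 were lower in MS than in WI, and the 2 that were higher were the members CPIJ014820 and CPIJ004461. By library size 18 were lower and 1 higher, CPIJ014820, with CPIJ004461 no longer called.

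The rule set no condition on the difference between unexposed field and Sebring females, but it used the levels of both. It set a floor on the WI and CO means and kept out a gene whose WI or CO libraries reached the MS libraries. It also tied MR to WI and not to CO. All tested genes, whose shares stand beside the members, were not chosen in this way. How far these conditions shaped the counts below was not tested. Of the 200 members, 31 (15.5%) were higher in WI than in CO by edgeR's quasi-likelihood F test with an FDR under 0.05, against 6.3% of all tested genes, and 1 (0.5%) was lower, against 4.15%. At an unadjusted p under 0.05, 69 members (34.5%) were higher and 4 lower, against 13.4% and 12.5% among all those tested. With the replicate number as a block, the counts were 57 (28.5%) higher and 2 lower, against 11.3% and 6.77%. The block tied same-numbered libraries of all 4 groups, although the numbers were read as pairing WI and CO alone. All other fits, with the SEs and FDRs given for single genes, left this pairing out. No fit paired WI and CO alone. By library size 14 (7%) were higher and 2 lower, against 3.98% and 5.38%. A fit restricted to WI and CO gave 9 (4.5%) and 0, against 2.6% and 1.07%. The count of higher members was 14 without WI 2, 17 without CO 1 or CO 5, 15 without CO 3, and 49 without CO 2 or without CO 4, so single libraries moved it by more than 1.5 times in both directions. The share of all genes called higher moved as well, from 4.3% without CO 3 to 9.45% without CO 4. The median member was higher in WI by 0.30 on the log2 scale, against -0.02 for the median gene. By library size these medians were 0.04 and -0.35. The members' distance from the median gene was 0.33 with TMM and 0.39 by library size. A change of library factors moves both medians nearly alike, so these distances are no check on the scaling. The WI mean exceeded the CO mean for 156 members with TMM, where 48.5% of all genes had a positive log2 fold change, and 104 had a positive log2 fold change by library size, where 30.9% of all genes did. In 21 members (10.5%) every WI library exceeded every CO library, as it did for 4.27% of all tested genes.

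The largest of these differences was in CPIJ019268, which has no term. CPIJ019268 was found at 29.2, 49.9, 39.2, 48.6 and 30.6 TMM CPM in WI 1 to 5, 4.57, 12.7, 7.59, 2.69 and 7.44 in CO 1 to 5 and 52.6, 24.6, 33.2, 28.8 and 30.01 in MR 1 to 5. MS 1 to 5 stood at 73.1, 89.8, 57.8, 54.7 and 63.1 TMM CPM. WI and CO did not overlap, and MR overlapped WI. The log2 fold change of CPIJ019268 in WI over CO was 2.50 (SE 0.323, FDR 2.47e-05, edgeR quasi-likelihood F test). The glycosidic hydrolases CPIJ007333 and CPIJ017521 followed, at 1.73 (SE 0.341, edgeR FDR 0.00223) and at 1.67 (SE 0.345, edgeR FDR 0.00342). CPIJ020116, without a term, was higher in WI by 1.69 (SE 0.306, edgeR FDR 0.000958), and CPIJ010518, of phosphoenolpyruvate carboxykinase, by 1.56 (SE 0.257, edgeR FDR 0.00038). For each of these 5 genes every WI library exceeded every CO library. The only member called lower in WI was CPIJ007650, without a term. Its level was 2.45, 2.69, 2.304, 2.72 and 1.499 TMM CPM in WI 1 to 5, 3.88, 6.13, 3.08, 5.98 and 4.18 in CO 1 to 5 and 3.62, 3.54, 1.89, 2.01 and 4.02 in MR 1 to 5. In MS it was 10.4, 12.7, 9.83, 9.27 and 6.34 TMM CPM. Its WI and CO libraries did not overlap. The log2 fold change was -0.99 (SE 0.272, FDR 0.0222, edgeR quasi-likelihood F test), and the FDR was 0.0747 in a fit restricted to WI and CO and 0.0627 without WI 5.

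Of the 7 members listed for energy, 4 were higher in WI than in CO, where 6.3% of all tested genes were (CPIJ002354, CPIJ008384, CPIJ006166 and CPIJ006157), and all 7 had positive log2 fold changes, from 0.54 to 1.17. Of the 8 listed for carbohydrate metabolism, 5 were higher, from CPIJ006375 at 0.68 to CPIJ007333 at 1.73. Of the 10 proteasome and COP9 signalosome members, 0 were called, with log2 fold changes from -0.38 to 0.34 and a smallest FDR of 0.398 by edgeR's quasi-likelihood F test. Over the whole lists, 14 of 29 energy genes were higher in WI and 0 lower, against 0 of 11 proteasome genes in either direction and 1 COP9 signalosome gene of 9 lower, beside 6.3% of all tested genes higher and 4.15% lower. By library size these counts were 11 of 29, 0 of 11 and 1 of 9, beside 3.98% and 5.38%. The difference between the lists was not tested. Summed over the 7 energy members, CO lay between 900.3 and 1709 TMM CPM and WI between 1795 and 2886, without overlap. Summed over the 6 proteasome members, CO lay between 235 and 355 and WI between 243 and 365.

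**Figure D4:**
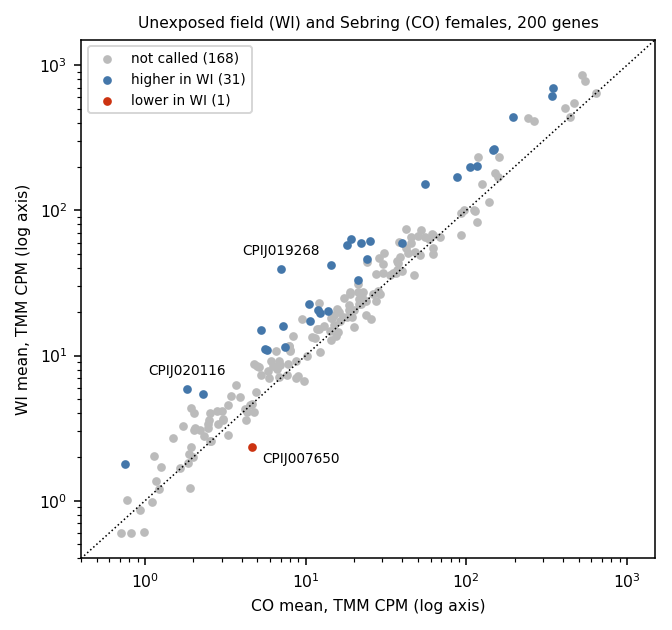
Mean TMM CPM of the WI group (y, log axis) against that of the CO group (x, log axis) for the 200 genes, each mean over 5 libraries, with equality as a dotted line. Blue marks the 31 genes called higher in WI, red the 1 called lower (CPIJ007650) and gray the 168 not called, and most points lie above the line, CPIJ019268 farthest.

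The counts in the contrasts that chose the members are descriptions only. By edgeR's quasi-likelihood F test, 190 members were higher in MS than in WI, where 12.3% of all genes were, 171 were higher in MS than in MR (4.18%) and 198 in MS than in CO (19.3%). The shares of all genes lower in MS were 11%, 2.76% and 18.9% against WI, MR and CO, and 0 members were. By library size the counts of higher members were 95, 23 and 109, where 5.1%, 0.669% and 8.02% of all genes were higher. Between MR and WI, whose ratio the rule bounds, 2 members were higher in MR (4.95% of all genes), CPIJ006054 and CPIJ000239, named here after their values were seen, and 0 were lower (3.99%). At an unadjusted p under 0.05 there were 27 higher and 1 lower, against 11% and 10.9% of all tested genes. The MR mean was above the WI mean for 144 of 200 members, with a median ratio of 1.20. The median ratio over all genes above the 0.5 TMM CPM floor was 0.979.

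Within groups the order of the libraries recurred from member to member. In WI, replicate 2 was the highest library for 91 members, and in MR replicate 1 for 95, while MR 3 was the lowest for 86 and MR 4 for 63. In CO, replicates 2 and 4 were each highest for 79 members and CO 1 was lowest for 100. In MS, replicates 2 and 4 were highest for 75 and 68, and MS 1 was lowest for 77. Relative to its own WI mean, the median member stood at 1.37 in MR 1, 1.26 in MR 2 and 1.16 in MR 5, but at 0.963 in MR 3 and 1.00 in MR 4 (TMM CPM). It stood at 0.566 to 0.933 in the CO libraries and at 2.199 to 2.52 in the MS libraries. WI 2, CO 4 and MS 2 had the lowest TMM factors of their groups (0.807, 0.841 and 0.563). CO 2, highest as often as CO 4, had a factor of 1.11, and in MR the lowest factor was that of MR 4 (1.01), which was highest for 23 members, against 1.08 in MR 1. The part of the factors in these orders was not tested. By library size the median member stood at 2.30 in MS 1 and at 1.39 to 1.67 in MS 2 to 5.

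The genes nearest each limit of the rule lay close together for the ratio, the separation and the ratio of MR to WI, and farther apart at the floor and the ceiling. CPIJ004461 was the last member by ratio at 1.6185 and CPIJ007015 the first left out at 1.6182. The lowest mean in WI or CO among members was 0.596 TMM CPM in CPIJ017182, and that of the nearest gene below the floor was 0.480 in CPIJ000901. The highest overall mean was 977 TMM CPM in CPIJ011929, and CPIJ014410 at 1356 was the nearest above the ceiling. In CPIJ009492 the lowest MS library was 1.001 times the highest other library, and in CPIJ013476 0.998 times. The ratio of MR to WI was 1.497 in CPIJ008420 and 1.501 in CPIJ004147 at the upper bound, and 0.678 in CPIJ018848 and 0.666 in CPIJ011555 at the lower. Of 650 genes with every MS library above all others, 322 had an MR mean above 1.5 times the WI mean and 2 had one below 0.67 times.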

How the data were processed

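Whole *Cx. quinquefasciatus* females, in 20 pools of 10, were sequenced with a directional library kit. The authors trimmed reads with TrimGalore 0.6.4, aligned them to the VectorBase genome CpipJ2.4 with STAR 2.7.3a and counted them on genes with featureCounts 1.6.0. The submitters' processing notes also name Picard 2.20.1. The files deposited by the authors hold raw counts, 1 whole number for each gene in each library. The settings for strand and multimapping reads, not given in the sources used here, leave antisense and near-identical genes uncertain.

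The software was edgeR 4.0.16, limma 3.58.1 and DESeq2 1.42.0 under R 4.3.3. A single model with 4 group means covered the 20 libraries, after filterByExpr (minimum count 10, minimum total 15) and TMM. It held no term for the replicate number. Contrasts were tested by edgeR's quasi-likelihood F test, with p-values adjusted over 17499 genes (Benjamini-Hochberg) and called at an FDR under 0.05. SEs were computed as the log2 fold change over the square root of F. The rule for the members was applied to TMM CPM. The members, the lists and the tests were chosen with earlier results of these data known. Within groups, the chi-square per gene between any 2 libraries was at least 149, so the 5 pools per group and not the depth limit the precision.

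Named genes were the 20 members highest in ratio, the 5 highest in MS mean, up to 5 rises and 5 falls between WI and CO, members named by the study, up to 3 members per listed term, and the genes nearest each limit. CPIJ016407, CPIJ003334, CPIJ013344, CPIJ010491, CPIJ006166, CPIJ006375, CPIJ011693, CPIJ006054 and CPIJ000239 were named beyond that rule, after their values were seen. The terms are printed in part in the copy used here, with up to 36 genes each. Of the identifiers, 0 matched the reference gene table, so sequences, positions, GC content and gene length were not used here. Same-numbered WI and CO libraries departed together from the means of their groups (Pearson's r across genes 0.308, 0.465, 0.233, 0.222 and 0.168), and the numbers were read as pairing 2 groups where all 5 values exceeded 0.1, which held for WI and CO alone. For WI and MR, 4 of 5 did and the lowest was 0.0928. The pairing of replicate 5 was weak, since WI 5 had a correlation of 0.262 with a CO library of another number.

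Alternatives were edgeR's exact and likelihood ratio tests, DESeq2, RLE factors, library size, unfiltered genes, genes at 1 CPM or more in 5 libraries, a fit restricted to the compared groups, the replicate block and leaving out each library.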

Additional observations from a re-analysis of the deposited data

Results flagged for a closer look

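Of 196 groups of 5 libraries checked over 49 named members, 18 held a library far from the other 4. A library was taken as far when its gap to the nearest other, divided by the range of the group, exceeded Dixon's critical value at the 95% level, which by its construction marks about 1 group in 20 of normally distributed values. In WI 2 the level was high for CPIJ007064 (98.4 TMM CPM, next 60.4), CPIJ011369 (24.3, next 14.6), CPIJ007333 (92.5, next 58.4), CPIJ017521 (87.7, next 55.9) and CPIJ005973 (35.7, next 21.2), and low for CPIJ017182 (0.242, next 0.620). In MS 2 it was high for CPIJ011929 (2191 TMM CPM, next 1542), CPIJ008384 (785, next 572) and the proteasome genes CPIJ015971 (251, next 199.8), CPIJ009931 (229, next 161) and CPIJ011552 (209, next 145). WI 2 and MS 2 had the lowest TMM factors of their groups, 0.807 and 0.563, and the part of the factors in these values was not tested.

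MR 1 was high for CPIJ008211 (2.72 TMM CPM, next 0.460) and CPIJ007830 (156, next 98.7). MS 5 was high for the peptidase inhibitor CPIJ011810 (62.4, next 17.5). CO 2 was high for CPIJ006157 (579.9, next 339) and CPIJ009492 (39.2, next 19.2). WI 3 was low for CPIJ020116 (3.20, next 5.996), and CO 4 for CPIJ017182 (0.0224, from 3 counts, next 0.829).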

How the results depend on the processing

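The count of genes meeting the rule was 299 with TMM, 26 by library size and, without any single library, 291 to 604, the highest without MS replicate 1. The 200 members then met every condition in 20 by library size and in 176 to 200 without any single library. An alternative chosen after seeing the data, library size without MS replicate 1, gave 43 genes and 20 members, and there the ratio fell below 1 for CPIJ011929 (0.955), CPIJ017812 (0.951) and CPIJ017182 (0.952). Of the 49 named members' ratios, 43 moved beyond the spread between replicates by library size. RLE factors and upper quartile factors (the latter chosen after seeing the data) kept all counts of the rule within 1.5 times.

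Members higher in WI than CO numbered 31, but 14 by library size, 9 in the fit of WI and CO alone, 57 with the replicate block, and 14 to 49 without any single library. The 1 lower member became 3 with DESeq2, 2 with RLE factors, by library size, with the stricter filter or with the block, 0 in the fit of WI and CO alone, and 0 to 3 without any single library. Members higher in MS numbered 190 over WI, 171 over MR and 198 over CO, and 95, 23 and 109 by library size. Without any single library they numbered 177 to 198, 124 to 191 and 196 to 199. Members called between MR and WI numbered 2, but 1 with the exact test, the likelihood ratio test, library size, no filter or the fit of MR and WI alone, 5 with DESeq2, 4 with the stricter filter, 11 with the block, and 0 to 3 without any single library. The cause of these changes was not tested. The replicate block changed no other count by over 1.5 times.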
